A study of Mus musculus with 12 samples.

Results

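Lipid-associated macrophage genes were followed in mouse visceral fat as a set of 10 genes: Trem2, Itgax, Cd9, Gpnmb, Spp1, Lipa, Ctsk, Clec7a, Tm4sf19 and Atp6v0d2. They were found by symbol among the 50559 genes counted in each library, and all 10 were among the 16550 genes that passed the filter on low counts. Lipid-associated macrophages are cells of obese fat that take up and digest lipid released by adipocytes, and they gather in crown-like structures around dying adipocytes. Trem2 is their surface receptor for lipids and signals through the adaptor Tyrobp. Itgax encodes CD11c, the integrin alpha chain that pairs with Itgb2 and marks dendritic cells and the macrophages of crown-like structures. Both genes are used as markers of the same cells in obese fat, and the question asked of these libraries was whether they moved apart.

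Visceral white fat of FVB/N mice was sequenced as 12 RNA libraries, 3 for each of 4 groups. Transgenic mice carried the alphaMHC tTA driver and the alphaMHC TGFb transgene, so that TGF-b1 was overexpressed in the heart, and mice called wild type here were littermates with the alphaMHC tTA driver alone. Both genotypes therefore carried the driver, and the alpha-myosin heavy chain promoter directs it to heart muscle and not to fat. Each genotype received either a high-fat diet, with 60% of its energy as fat and 5.21 kcal/g, or control chow, with 17% and 3.1 kcal/g. Feeding began at 8 to 10 weeks of age and lasted 2 or 6 weeks, and the labels do not assign a duration to each library. The question behind the design is how the diet response of fat depends on a heart that overproduces TGF-b1.

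The libraries held 20.1 to 21.3 M gene counts and detected 22603 to 23720 genes. Nothing in the labels ties a library to its own animal, and a p-value therefore rests on library-to-library spread that may be technical. All 16 general macrophage markers were measured, and their summed level lay between 1082 and 1456 CPM (counts relative to the library total, scaled by TMM factors) in transgenic high-fat libraries and between 1132 and 1264 CPM in wild-type high-fat libraries. It lay between 913 and 973 CPM in transgenic control libraries and between 1044 and 1237 CPM in wild-type control libraries. Genes of other tissues were high in some libraries. The 8 epithelial genes summed to 397 CPM in transgenic control replicate 2 and to 95.6 CPM in wild-type control replicate 1, which are called epithelium-rich below. The other 10 libraries had at most 43.0 CPM. The 6 Schwann cell genes summed to 206 CPM in that wild-type library and to at most 85.8 CPM in the other libraries. The 7 striated muscle genes summed to 435 CPM in wild-type high-fat replicate 3 and to 638 CPM in transgenic control replicate 3, the muscle-rich libraries, against at most 79.5 CPM elsewhere.

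RefSeq promoter sequences on GRCm38.p6, running from 250 bases before to 50 bases after the annotated start, were found for 9 of the 10 genes. Those of Trem2, Itgax and Gpnmb are shown because they share the motif TGANTCA, the core recognized by AP-1 factors, and because the first 2 genes are the pair compared below. The Trem2 promoter is chr17:48346151-48346450 on the plus strand, the Itgax promoter chr7:128129300-128129599 on the plus strand and the Gpnmb promoter chr6:49036268-49036567 on the plus strand. Capitals mark TGANTCA, and in Trem2 also TTCCTC, the reverse complement of GAGGAA, a core that the macrophage factor PU.1 recognizes.
Trem2: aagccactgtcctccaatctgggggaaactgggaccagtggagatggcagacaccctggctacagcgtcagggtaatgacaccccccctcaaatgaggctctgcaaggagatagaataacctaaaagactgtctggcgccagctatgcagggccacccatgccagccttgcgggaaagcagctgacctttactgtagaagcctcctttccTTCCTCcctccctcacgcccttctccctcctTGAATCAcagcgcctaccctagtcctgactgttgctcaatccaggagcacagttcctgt
Itgax: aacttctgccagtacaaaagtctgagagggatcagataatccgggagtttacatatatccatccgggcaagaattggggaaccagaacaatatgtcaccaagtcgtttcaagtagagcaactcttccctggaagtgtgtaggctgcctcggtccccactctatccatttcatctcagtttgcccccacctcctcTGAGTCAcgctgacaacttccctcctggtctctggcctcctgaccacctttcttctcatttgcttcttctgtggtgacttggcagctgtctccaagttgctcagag
Gpnmb: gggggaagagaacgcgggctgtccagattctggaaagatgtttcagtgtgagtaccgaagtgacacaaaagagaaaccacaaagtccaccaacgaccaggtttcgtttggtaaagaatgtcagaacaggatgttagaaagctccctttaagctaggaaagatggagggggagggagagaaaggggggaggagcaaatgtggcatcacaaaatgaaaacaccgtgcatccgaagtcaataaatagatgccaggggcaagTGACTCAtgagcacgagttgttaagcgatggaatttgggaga

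Counted from the annotated start of each promoter sequence, TGANTCA lay at bases -9 to -3 in Trem2, -56 to -50 in Itgax and 8 to 14 in Gpnmb. For Itgax that start lies downstream of the gene start given below, 128129526. It was present in 7.81% of the 32851 mouse promoters of this length. GAGGAA, searched on both strands, was present in the promoters of Trem2, Spp1, Lipa, Ctsk and Clec7a and in 28.3% of all promoters. CACGTG, the core recognized by the lysosomal regulators TFEB and TFE3, was in none of the 9 promoters and in 7.15% of all promoters. These matches are letters in a window and do not show binding.

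High-fat diet lowered Trem2 and raised Itgax. Trem2 (GRCm38 chromosome 17, 48346401 to 48352276, plus strand) had 19.1, 13.8 and 12.7 CPM in transgenic high-fat libraries, against 41.6, 37.7 and 63.1 CPM in transgenic control libraries. The 2 groups did not overlap, and transgenic control replicate 3 stood highest. In wild type, Trem2 had 31.8, 19.1 and 13.9 CPM on high-fat diet, against 16.1, 35.5 and 33.2 CPM on control diet. These groups overlapped, with high-fat replicate 1 above and control replicate 1 below the other libraries of their groups. In transgenic fat the log2 fold change of Trem2 was -1.64 (SE 0.34, edgeR adjusted p = 0.0146), a 3.12-fold lower level. In wild type it was -0.39 (SE 0.34, adjusted p = 0.582) and did not pass, and the mean of both genotypes was -1.02 (SE 0.24, adjusted p = 0.0136). Without transgenic high-fat replicate 3, the transgenic value was -1.52 and no longer passed (adjusted p = 0.0722).

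Itgax (chromosome 7, 128129526 to 128150657, plus strand) moved the other way in both genotypes. It had 9.73, 6.37 and 9.01 CPM in transgenic high-fat libraries, against 1.14, 1.25 and 1.85 CPM in transgenic control libraries. Wild-type libraries had 16.5, 8.39 and 5.84 CPM on high-fat diet, against 2.76, 2.39 and 2.08 CPM on control diet. Every one of the 6 high-fat libraries lay above every one of the 6 control libraries, as was the case for 3.98% of all genes tested, and wild-type high-fat replicate 1 stood highest. The log2 fold change was 2.55 in transgenic fat (SE 0.36, adjusted p = 0.00284) and 2.08 in wild-type fat (SE 0.35, adjusted p = 0.0244). Leaving out control replicate 1 or 2 or high-fat replicate 1 or 2 of the wild-type libraries ended the wild-type call (log2 1.56 to 2.21, adjusted p = 0.0679 to 0.102). The mean of both genotypes, 2.32 (SE 0.25, adjusted p = 0.000334), passed in every fit that left out 1 library. In bulk fat, fewer cells of a type and less RNA per cell cannot be told apart, and this holds for every difference given here.

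Among the 10 genes, 4 passed the test in transgenic fat (Trem2 lower, and Itgax, Clec7a and Tm4sf19 higher), 1 passed in wild-type fat (Itgax) and 5 passed for the mean of both genotypes (those 4 and Atp6v0d2). Of all genes tested, 8.73% passed in transgenic fat (5.39% higher and 3.34% lower) and 1.14% in wild-type fat (0.683% higher). For the mean of both genotypes 17.4% passed (9.43% higher and 7.98% lower). Libraries of the 2 diets did not overlap for 7 of the 10 genes in transgenic fat, 6 higher (14.4% of all genes) and Trem2 lower (13.4%), and for 3 higher genes in wild-type fat (12.5%). The median log2 fold change of the 10 genes was 1.20 in transgenic fat, 0.63 in wild-type fat and 0.76 for the mean of both, against -0.02, -0.01 and -0.02 for all genes tested.

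**Figure D1:**
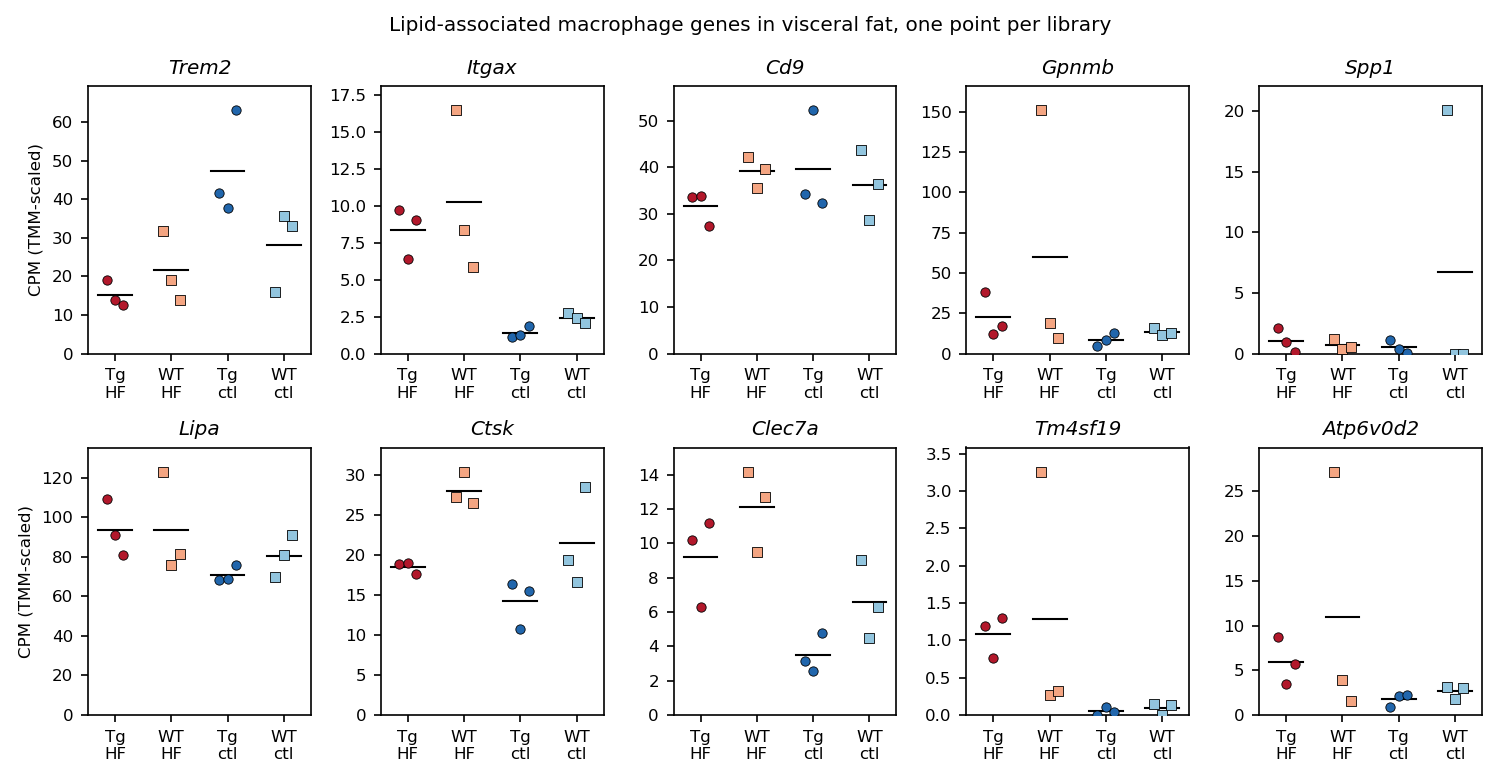
Level of each of the 10 genes in every library, in TMM-scaled CPM on linear axes, by group (Tg, transgenic; WT, wild type; HF, high-fat diet; ctl, control diet). Points are libraries and bars are means of 3. By group mean, Trem2 is lowest in transgenic high-fat and highest in transgenic control libraries. Itgax does not overlap between diets. Wild-type high-fat replicate 1 stands far above the rest for Gpnmb (151 CPM) and Atp6v0d2 (27.2 CPM).

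**Figure D2:**
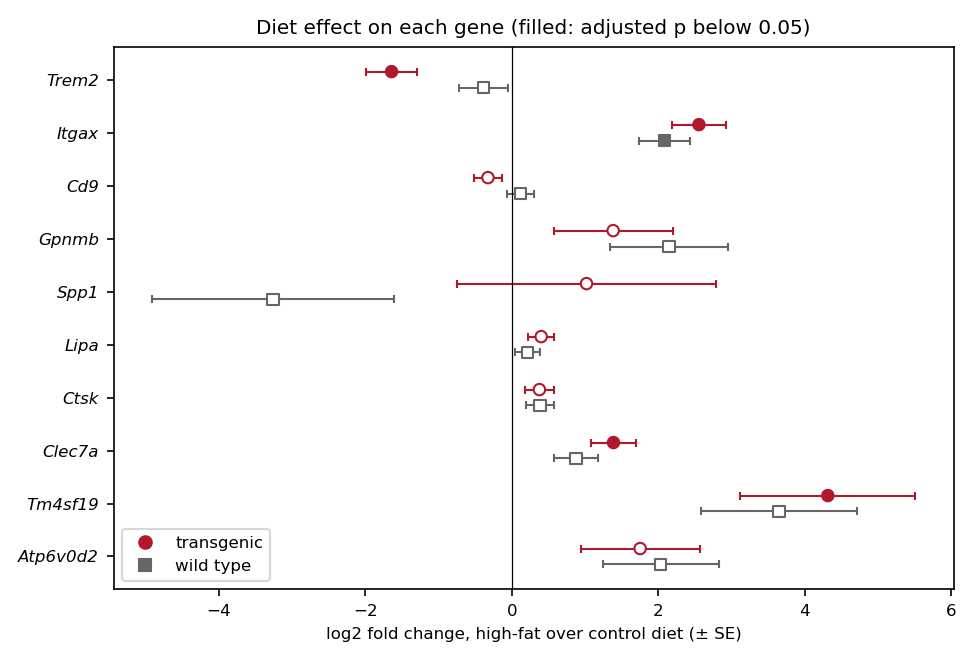
Log2 fold change of high-fat over control diet for each gene, in transgenic (circles) and wild-type fat (squares), with standard errors from edgeR. Filled symbols passed at an adjusted p below 0.05; Trem2 lies left of 0 in both genotypes while Itgax, Clec7a and Tm4sf19 lie right of it.

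The ratio of Trem2 to Itgax counts within a library needs no scaling between libraries, and it separated the diets without overlap. Itgax alone did so as well, so the separation by itself does not show that Trem2 moved. In wild type the log2 fold change was 2.08 for Itgax and -0.39 for Trem2, which did not pass, so the wild-type ratio mainly followed Itgax. It was 1.96, 2.17 and 1.41 in transgenic high-fat libraries, against 35.7, 29.4 and 33.7 in transgenic control libraries. The wild-type ratios were 1.93, 2.27 and 2.37 on high-fat diet, against 5.78, 14.7 and 15.8 on control diet. The 6 high-fat libraries thus fell within a narrow range whatever the genotype, and the control libraries of the 2 genotypes stood apart. The log2 ratio was lower on high-fat diet by a mean of 3.26 over both genotypes, a 9.57-fold difference (two-sided exact permutation of diet within genotype, p = 0.005, the smallest that the 400 arrangements allow). Within transgenic fat the difference was -4.18 and within wild-type fat -2.34, each with an exact p = 0.1, the smallest that 3 against 3 libraries allow. Leaving out any 1 library gave a mean difference of -3.49 to -3.13 (exact p = 0.005 to 0.01).

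Trem2 and Itgax were each set against the 16 general macrophage markers of their own library (the gene's log2 count less the mean log2 count of the list). The same list value is taken from both genes, so the gap between them is that of their ratio and adds no second evidence. The list was itself higher on high-fat diet (median log2 fold change 0.42 for the mean of both genotypes). Values set against it are therefore lower than those of the gene alone. The log2 ratio of Trem2 to the list averaged -1.42 ± 0.10 in transgenic high-fat, -0.94 ± 0.55 in wild-type high-fat, 0.64 ± 0.25 in transgenic control and -0.30 ± 0.69 in wild-type control libraries (SD, n = 3 each). The ratio of Itgax to the list averaged -2.28 ± 0.24, -2.06 ± 0.70, -4.40 ± 0.22 and -3.76 ± 0.19 in the same order of groups (SD, n = 3 each). The diet difference, averaged over genotypes, was -1.35 for Trem2 (two-sided exact permutation p = 0.015) and 1.91 for Itgax (p = 0.005, the smallest possible). With no test, the same difference was 3.22 for Tm4sf19, 1.09 for Atp6v0d2, 0.91 for Gpnmb, 0.89 for Spp1 and 0.81 for Clec7a. It was 0.07 for Ctsk, -0.05 for Lipa and -0.42 for Cd9, so Trem2 had the most negative value of the 10.

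**Figure D3:**
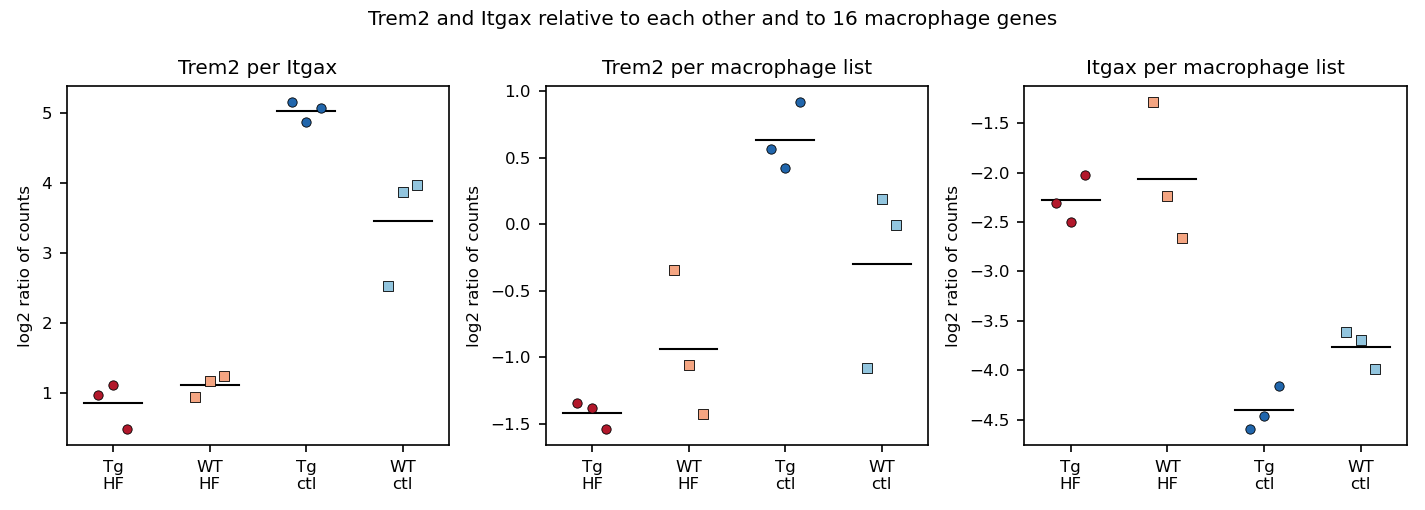
Log2 ratio of counts per library for Trem2 to Itgax, Trem2 to 16 general macrophage genes and Itgax to those genes, by group (Tg, transgenic; WT, wild type; HF, high-fat; ctl, control); points are libraries and bars are means of 3. The first ratio is between 0.49 and 1.24 in all 6 high-fat libraries and between 2.53 and 5.16 in the 6 control libraries.

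Trem2 was lower while some genes of its signalling list were higher for the mean of both genotypes. Tyrobp, its adaptor, was higher on high-fat diet (mean of both genotypes 0.58 on the log2 scale, SE 0.11, adjusted p = 0.00436). Syk, the kinase recruited to Tyrobp, was higher by 0.69 (SE 0.12, adjusted p = 0.00344). Of the 9 measured genes of the Trem2 signalling list, 4 passed and all 4 were higher (Tyrobp, Syk, the exchange factor Vav1 and the lipid phosphatase Inpp5d). The list's median was 0.48, against 0.42 for the 16 general macrophage markers. In transgenic fat 4 of the 9 passed, all higher, and in wild-type fat 0 passed. The related receptor Treml4 was higher by 1.42 (SE 0.33, adjusted p = 0.013), and it was the 1 gene of 5 in the rest of the TREM family that passed the filter on low counts. Treml4 did not pass in either genotype alone. Levels were low, and the sum of the 5 genes overlapped between diets, at 1.23 to 2.15 CPM on high-fat and 0.784 to 1.88 CPM on control diet.

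Itgax moved with the other beta2 integrin genes for the mean of both genotypes. Itgb2, which encodes the beta chain that CD11c needs at the cell surface, was higher on high-fat diet by 0.84 (SE 0.18, adjusted p = 0.00837). Of the 6 genes of that list, 5 passed and all were higher, among them the alpha chains Itgal (0.96) and Itgam (0.74) and the integrin activator Fermt3 (0.81). Their median was 0.82, and Itgax itself at 2.32 lay above each of the 6. In transgenic fat 4 of the 6 passed, all higher, and in wild-type fat 0 passed (median 0.62).

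Markers of several other cells also differed between diets. Of 16 general macrophage markers, 5 passed and were higher on high-fat diet for the mean of both genotypes, with a median of 0.42. They included Mpeg1, a pore-forming protein (1.38), Laptm5 (0.70) and Cd68 (0.84), while Adgre1, which encodes F4/80, had 0.47 and did not pass (adjusted p = 0.062). None of 10 resident macrophage markers passed with edgeR for the mean of both genotypes (5 at an unadjusted p below 0.05), and their median was 0.05. In transgenic fat 1 of the 10 passed, higher, and in wild-type fat 0 passed. Of 12 dendritic cell markers 6 passed, all higher, including Irf8 (1.23), Fscn1 (0.88), Flt3 (1.66) and Clec9a (0.78). Fscn1, an actin-bundling protein that other cells also make, took 48.0% to 68.4% of the list's sum. The other 11 genes summed to between 64.8 and 78.2 CPM in transgenic high-fat and 71.1 and 76.9 CPM in wild-type high-fat libraries, against 43.9 to 49.2 CPM in transgenic control and 47.8 to 52.5 CPM in wild-type control libraries. Of 7 monocyte markers 3 passed, all higher, including the chemokine receptor Ccr2 (1.43). Of 7 T and NK cell markers 3 passed, all higher (Cd8a, Cd3e and Cd4), with a median of 0.95. None of the 7 passed in either genotype alone. Their levels were low, with a sum of at most 12.4 CPM in any library. That sum overlapped between diets in transgenic fat and did not in wild-type fat. Mesothelial and epithelial genes were lower on high-fat diet for the mean of both genotypes, 6 of 8 with a median of -1.06 and 5 of 8 with a median of -1.88. In wild-type fat 0 of 8 passed in either list. The epithelial sum overlapped between diets, at 12.7 to 29.3 CPM on high-fat and 22.9 to 397 CPM on control diet. Both epithelium-rich libraries were on control diet. The mesothelial sum lay between 124 and 359.5 CPM in transgenic high-fat and 362 and 479 CPM in wild-type high-fat libraries, against 640.1 to 669.7 CPM in transgenic control and 574 to 934 CPM in wild-type control libraries, without overlap between diets. CD11c is itself a dendritic cell marker, and the part of any of these cells in the Trem2 and Itgax results was not tested.

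**Figure D4:**
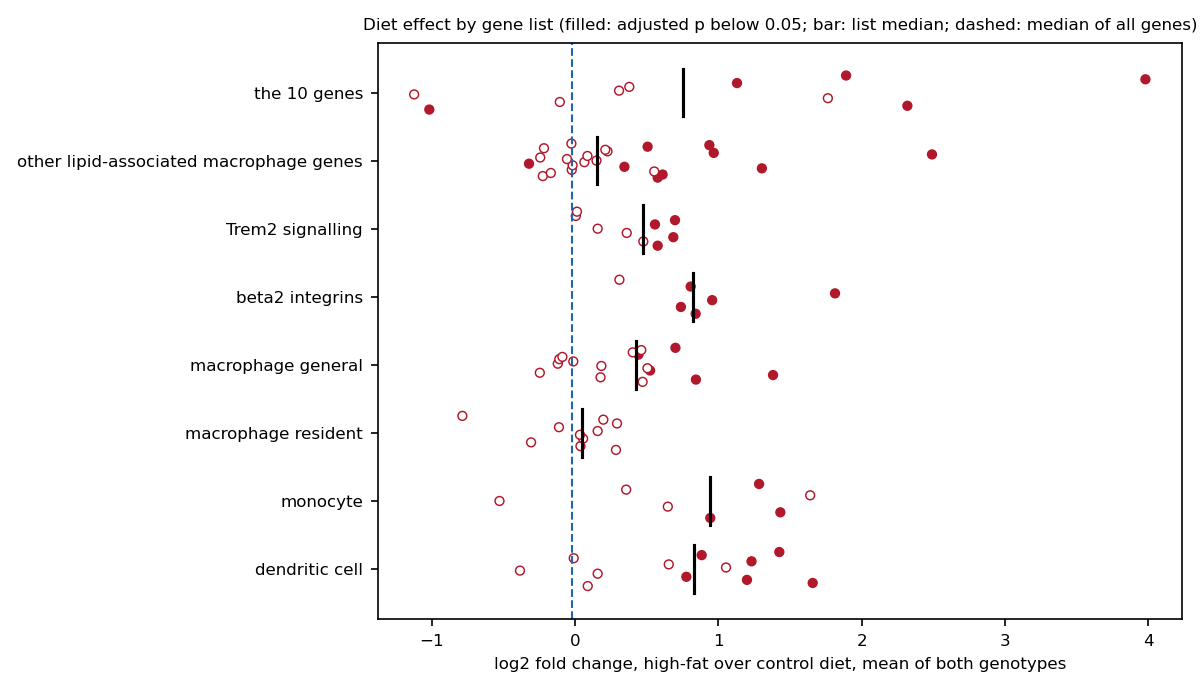
Log2 fold change of high-fat over control diet, mean of both genotypes, for each measured gene of 8 lists. Points are genes (filled where the adjusted p was below 0.05), short bars are list medians and the dashed line is the median of all genes tested; the beta2 integrin, monocyte and dendritic cell lists have medians of 0.82, 0.94 and 0.83, and the resident macrophage list 0.05.

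Gpnmb, Atp6v0d2 and Tm4sf19, genes of lipid-loaded macrophages that osteoclasts also express, shared 1 library that stood far above the rest. Gpnmb, a membrane glycoprotein, had 38.3, 12.2 and 17.2 CPM in transgenic high-fat libraries, against 4.86, 8.62 and 12.4 CPM in transgenic control libraries. Gpnmb in wild type had 151, 18.8 and 9.83 CPM on high-fat diet, against 16.1, 11.4 and 12.9 CPM on control diet. The diet groups overlapped in both genotypes, and in each genotype replicate 1 was the highest high-fat library. The log2 fold change of Gpnmb was 1.38 in transgenic fat (SE 0.81, adjusted p = 0.309), 2.15 in wild-type fat (SE 0.81, adjusted p = 0.188) and 1.76 for the mean of both (SE 0.57, adjusted p = 0.0519), none of which passed. The mean of Gpnmb did pass with DESeq2 (1.77, adjusted p = 0.0300) and in edgeR without wild-type high-fat replicate 2 or 3 (1.98 and 2.02, adjusted p = 0.0424 and 0.0188). Without wild-type high-fat replicate 1, that mean was 0.73 (adjusted p = 0.159) and the wild-type value 0.09.

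Atp6v0d2, an isoform of a V-ATPase proton pump subunit, had 8.72, 3.50 and 5.68 CPM in transgenic high-fat libraries, against 0.942, 2.14 and 2.21 CPM in transgenic control libraries. Among wild-type libraries it had 27.2, 3.95 and 1.62 CPM on high-fat diet, against 3.15, 1.83 and 3.01 CPM on control diet. The transgenic groups did not overlap and the wild-type groups did. For the mean of both genotypes it was higher by 1.89 (SE 0.57, adjusted p = 0.0384), and it passed in only 3 of the 12 fits that left out 1 library. Without wild-type high-fat replicate 1 that mean was 0.91 (adjusted p = 0.0997), and the wild-type value was 0.07. Within transgenic fat the value was 1.75 (SE 0.81, adjusted p = 0.196), while the authors' deposited table, fitted by DESeq2 to those 6 libraries, gave 1.76 with an adjusted p of 0.000888. Its paralog Atp6v0d1, found in most cells, had a value of 0.01 (SE 0.06, adjusted p = 0.919). Of 17 other V-ATPase subunits 2 were higher, Atp6v0a1 (0.66) and Atp6v1b2 (0.22), and Atp6v1g1 was lower (-0.28), with a median of -0.04. These 3 of 17 are close to the 17.4% of all genes that passed.

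Tm4sf19, a membrane-spanning protein, was the least abundant of the 10 by total counts. It had 25, 16 and 26 counts in transgenic high-fat libraries, against 0, 2 and 1 counts in transgenic control libraries. The wild-type counts were 69, 6 and 7 on high-fat diet, against 3, 0 and 3 on control diet. All 6 high-fat libraries lay above all 6 control libraries. Summed over libraries and scaled to their depth, the ratio was 22.2 in transgenic fat (95% exact interval 7.28 to 110) and 12.9 in wild-type fat (5.69 to 36.3), intervals that cover counting error only. Tm4sf19 passed in transgenic fat (log2 4.31, SE 1.20, adjusted p = 0.0438) and for the mean of both genotypes (3.98, SE 0.80, adjusted p = 0.00655), and these fitted values depend on the prior count because the control counts are so low. The transgenic call held in 4 of the 12 fits that left out 1 library and was lost with limma-voom (adjusted p = 0.0628). In wild type Tm4sf19 did not pass with edgeR (3.65, SE 1.06, adjusted p = 0.106) and did with DESeq2 (3.75, adjusted p = 0.0151), and the authors' deposited table gave 3.75 with an adjusted p of 0.0260. Without wild-type high-fat replicate 1 the edgeR value was 1.55.

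**Figure D5:**
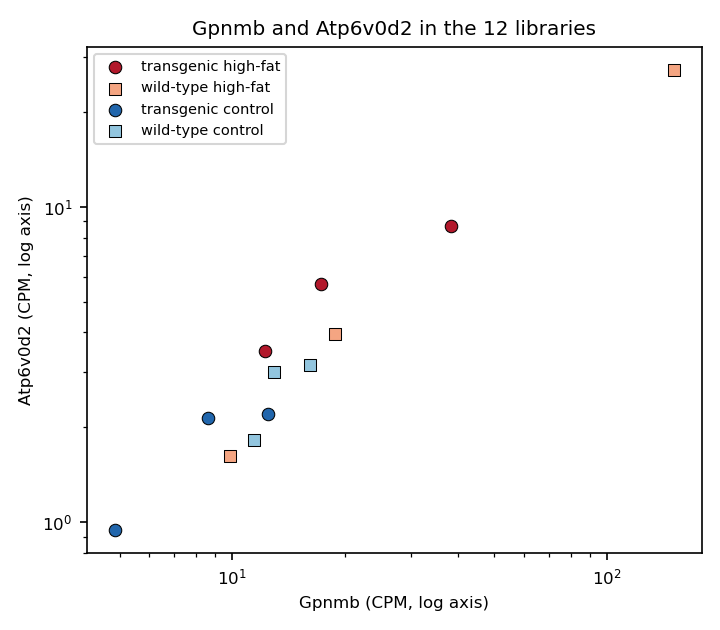
Atp6v0d2 against Gpnmb in the 12 libraries, both in CPM on log axes, coloured by group. Wild-type high-fat replicate 1 lies apart at 151 and 27.2 CPM, and transgenic high-fat replicate 1 comes next at 38.3 and 8.72 CPM.

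Markers of osteoclasts and melanocytes, other cells in which some of these genes are known, were examined as well. Of 10 osteoclast markers, Calcr was at 0 in 8 of 12 libraries and Oscar reached at most 0.232 CPM. Of the 8 that passed the filter, 3 were higher on high-fat diet for the mean of both genotypes: Dcstamp, needed for cell fusion (1.41, SE 0.36, adjusted p = 0.0203), Tnfrsf11a, the receptor RANK (0.54), and the transcription factor Nfatc1 (0.29). The protease Mmp9 (-1.52, SE 0.20, adjusted p = 0.000682) and the phosphatase Acp5 (-0.29) were lower. Acp5 made up 88.3% to 92.1% of the list's sum, and the other 9 genes summed to between 59.0 and 64.6 CPM in the high-fat libraries and between 53.9 and 66.6 CPM in the control libraries of both genotypes. The part of these cells in the results for the 10 genes was not tested. Of 6 melanocyte markers, Tyr, Tyrp1 and Mlana were at 0 in 8, 9 and 6 libraries and reached at most 0.149 CPM. The summed list lay between 12.7 and 19.8 CPM in the high-fat and between 14.1 and 24.9 CPM in the control libraries, and Mitf, which many cells make, was 86.7% to 94.9% of it.

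Clec7a was higher on high-fat diet. It encodes Dectin-1, a receptor for fungal beta-glucan. Its levels were 10.2, 6.28 and 11.2 CPM in transgenic high-fat libraries, against 3.17, 2.56 and 4.78 CPM in transgenic control libraries. In wild type they were 14.2, 9.49 and 12.7 CPM on high-fat diet, against 9.06, 4.47 and 6.29 CPM on control diet. Neither genotype showed overlap between diets. The difference passed in transgenic fat (1.39, SE 0.31, adjusted p = 0.0198) and for the mean of both genotypes (1.13, SE 0.22, adjusted p = 0.00518), and not in wild type (0.87, SE 0.30, adjusted p = 0.157). The transgenic call held in 8 of the 12 fits that left out 1 library, and the wild-type difference has an adjusted p of 0.0307 in the authors' deposited table. Of the 6 related lectin genes that passed the filter, 4 were higher, including Olr1, a receptor for oxidized lipoprotein (1.66, SE 0.49, adjusted p = 0.0353).

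The lysosomal genes Lipa and Ctsk did not pass between diets in either genotype. Lipa encodes the acid lipase that frees cholesterol and fatty acids in lysosomes, and it had 109, 91.3 and 80.8 CPM in transgenic high-fat libraries, against 68.5, 68.6 and 76.1 CPM in transgenic control libraries. Lipa in wild type had 123, 76.2 and 81.6 CPM on high-fat diet, against 69.9, 81.0 and 90.9 CPM on control diet. The groups did not overlap in transgenic fat and overlapped in wild type. Neither 0.40 (SE 0.18, adjusted p = 0.171) nor 0.22 (SE 0.17, adjusted p = 0.556) passed. Of 7 genes of lysosomal cholesterol handling, Abca1, a cholesterol exporter, was higher (0.26, SE 0.08, adjusted p = 0.0339), and the other 6 did not pass.

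Ctsk, a collagen-degrading cathepsin, had 18.9, 19.0 and 17.6 CPM in transgenic high-fat libraries, against 16.4, 10.8 and 15.5 CPM in transgenic control libraries. In wild type it had 27.3, 30.4 and 26.6 CPM on high-fat diet, against 19.4, 16.6 and 28.6 CPM on control diet. Diets did not overlap in transgenic fat and did in wild type, where control replicate 3 was high. Its diet effect was 0.38 in both genotypes (SE 0.19 in each) and did not pass (adjusted p = 0.242 in transgenic and 0.313 in wild-type fat). The mean of both, also 0.38 (SE 0.14, adjusted p = 0.0723), did not pass with edgeR. It passed with DESeq2 (adjusted p = 0.0416), with limma-voom (0.47, adjusted p = 0.0221) and in edgeR without wild-type control replicate 3 (0.51, adjusted p = 0.0133). Of 10 other cathepsins, Ctss (0.94) and Ctsl (0.51) were higher and Ctso was lower (-0.23), and the median was -0.02.

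Cd9 and Spp1 gave no call in any comparison. Cd9, a tetraspanin that many cell types carry, lay between 27.3 and 33.8 CPM in transgenic high-fat, 35.6 and 42.2 CPM in wild-type high-fat, 32.4 and 52.2 CPM in transgenic control and 28.6 and 43.6 CPM in wild-type control libraries. Its highest control libraries in each genotype were the epithelium-rich ones, and the part of epithelial RNA was not tested. Of its exon bases, 10.7% overlap the opposite-strand gene Gm26728, and the strand setting of the counting is not given in the sources used here. Of 6 other tetraspanins, Cd53 of leukocytes was higher (0.48) and lysosomal Cd63 was lower (-0.32).

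Spp1, the secreted matrix protein osteopontin, was low, at no more than 2.11 CPM, in 11 libraries. It had 2.11, 0.910 and 0.0996 CPM in transgenic high-fat libraries, against 1.14, 0.366 and 0.0451 CPM in transgenic control libraries. Spp1 in wild type had 1.23, 0.351 and 0.510 CPM on high-fat diet, against 20.1, 0 and 0 CPM on control diet. The 20.1 CPM belong to wild-type control replicate 1, the epithelium-rich library that also had the highest Schwann cell sum, and their part in this value was not tested. The wild-type log2 fold change was -3.26 (SE 1.65, adjusted p = 0.323) and became 6.88 without that library, so no direction can be given. Of its exon bases, 18.8% overlap the same-strand gene Gm42793. Among 6 receptors for osteopontin, Cd44 (1.19), Itga4 (0.83) and Itgb1 (0.35) were higher on high-fat diet and the other 3 did not pass.

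The heart transgene gave no call among the 10 genes. With edgeR the share of all genes that passed was 0.0% on high-fat diet and 0.0363% on control diet, and 0.0% for the genotype by diet interaction. At an unadjusted p below 0.05 these shares were 6.73%, 11.0% and 5.61%, and with DESeq2 the calls over all genes numbered 9, 262 and 27. Ctsk was lower in transgenic fat on both diets without overlap on either, with 17.6 to 19.0 CPM in transgenic high-fat against 26.6 to 30.4 CPM in wild-type high-fat libraries, and 10.8 to 16.4 CPM in transgenic control against 16.6 to 28.6 CPM in wild-type control libraries. The log2 fold change was -0.60 on each diet (SE 0.19 on each, adjusted p = 0.712 on high-fat and 0.283 on control diet). The authors' deposited table gave -0.61 on high-fat diet with an adjusted p of 0.00992. Groups without overlap made up 6.39% of all genes in the lower direction on high-fat diet and 7.57% on control diet.

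On control diet, Trem2 was at 37.7 to 63.1 CPM in transgenic against 16.1 to 35.5 CPM in wild-type libraries, without overlap (0.75, SE 0.33, adjusted p = 0.436), which 6.5% of all genes showed in that direction. Itgax was at 1.14 to 1.85 CPM in transgenic against 2.08 to 2.76 CPM in wild-type libraries, also without overlap (-0.76, SE 0.37, adjusted p = 0.477). Neither passed. On high-fat diet the values were -0.50 (SE 0.34) for Trem2 and -0.29 (SE 0.33) for Itgax, and the libraries of the genotypes overlapped. The edgeR genotype by diet interaction was -1.25 for Trem2 (SE 0.48, adjusted p = 0.817) and 0.47 for Itgax (SE 0.49, adjusted p = 0.934), so a different diet effect in the 2 genotypes was not shown for either gene. The Trem2 to Itgax ratio averaged over diets was higher in transgenic fat by 0.65 on the log2 scale (two-sided exact permutation of genotype within diet, p = 0.095).

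Per kilobase of the longest coding transcript, Trem2 was far above Itgax on control diet and closer to it on high-fat diet. Comparisons between genes hold for this choice of length only. That transcript has 1088 bases in Trem2 and 4046 in Itgax, while all annotated exons together cover 4946 and 4803 bases. Dividing by the exon bases would lower Trem2 more than Itgax. Trem2 averaged 14.0 ± 3.12 CPM per kb in transgenic high-fat, 19.8 ± 8.47 in wild-type high-fat, 43.6 ± 12.6 in transgenic control and 26.0 ± 9.75 in wild-type control libraries (SD, n = 3 each). Itgax averaged 2.07 ± 0.44, 2.53 ± 1.37, 0.35 ± 0.09 and 0.60 ± 0.08 CPM per kb in the same order (SD, n = 3 each). Tyrobp averaged 71.9 ± 11.2, 78.7 ± 13.3, 44.6 ± 4.79 and 57.0 ± 6.57 CPM per kb (SD, n = 3 each), above both genes in 3 groups and level with Trem2 in transgenic control libraries, where their ranges overlapped. By group means, Lipa, at 23.9 to 31.6 CPM per kb, and Cd9, at 25.7 to 32.3, were the only members other than Trem2 above 20 in any group.

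Among 13086 genes with a mean of at least 1 CPM, those whose log2 CPM followed Trem2 most closely over the 12 libraries were Ptprr, Plcd3, Hunk, Zrsr1 and Zfp639, each with a Pearson r of 0.89. Hunk averaged 1.07 CPM in transgenic high-fat, 1.54 in wild-type high-fat, 3.62 in transgenic control and 1.98 in wild-type control libraries, the order in which Trem2 also ran. The genes closest to Itgax were Nckap1l, Mpeg1, Myo1f, Tlk1 and Cdca7l, with r of 0.98 to 0.99. Nckap1l averaged 35.3, 34.5, 15.8 and 20.4 CPM in the same order of groups. These r values describe a choice among all genes, and no gene was on both lists. They pool both diets, between which Itgax did not overlap, so they also hold the difference between diets.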

How the data were processed

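RNA-seq of visceral fat was measured in 12 libraries, grouped by genotype and diet from the sample titles, with replicate numbers used as names. The authors deposited whole-number read counts per gene, not normalized. The submitters' processing notes name the mm10 build, HISAT2 2.2.0, HTSeq 2.0 and DESeq2 1.32.0. Which annotation and strand setting were used is not given in the sources used here. The 5 summary entries of each library, 16.8% to 21.0% of its reads, stayed out of library sizes and tests.

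The authors also deposited a table per pairwise comparison. Per the file headers its columns are a mean signal in normalized counts, the log2 fold change and its error, the Wald score, and p-values before and after adjustment. Values from it are credited where printed.

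The test was the quasi-likelihood F test of edgeR 4.0.16 in R 4.3.3, on all 12 libraries in 1 group-means model (8 residual degrees of freedom), after filterByExpr (minimum count 10, minimum total 15) and TMM scaling. Biological variation between libraries came to a coefficient of 20.1%. P-values were Benjamini-Hochberg adjusted over 16550 genes, and a gene passed at an adjusted p below 0.05. Standard errors are log2 fold changes over the root of F. The mean of both genotypes is the average of both diet effects. Ratios of counts used a pseudocount of 0.5 and two-sided exact permutation over libraries. The scripts were tested on simulated data. No library was a copy of another, since all differed beyond sampling error of the counts.

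The 10 genes and all gene lists were chosen with earlier results of these data known. Named are all 10 genes, up to 4 genes of a list with the smallest p for the mean diet effect, partners and paralogs of the 10, and the 5 genes most like Trem2 and Itgax. A few further genes of small counts were named after their values were seen. Alternatives were DESeq2 1.42.0, limma 3.58.1 (voom with quality weights), other scalings and filters, a replicate block, single comparisons, and fits without each library or the epithelium-rich or muscle-rich pair. Gene positions come from RefSeq and promoters from RefSeq GRCm38.p6. Gene strands, exon and transcript lengths and overlaps come from GENCODE M21.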

Additional observations from a re-analysis of the deposited data

Results flagged for a closer look

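The diet difference in the Trem2 to Itgax count ratio was itself larger in transgenic than in wild-type fat, which singled it out as an effect that differs between genotypes. The log2 ratio was lower on high-fat diet by 4.18 in transgenic fat and by 2.34 in wild-type fat, and the difference between these effects was -1.84, a 3.57-fold difference. Permuting genotype within each diet gave a two-sided exact p = 0.015 over 400 arrangements, a test that assumes no genotype effect on either diet. Leaving out any 1 library gave -2.09 to -1.37 (exact p = 0.01 to 0.03). The high-fat libraries of both genotypes had nearly the same ratio (1.41 to 2.17 in transgenic and 1.93 to 2.37 in wild type), so the control libraries carry the difference (29.4 to 35.7 in transgenic and 5.78 to 15.8 in wild type). The lowest wild-type control ratio belongs to the epithelium-rich replicate 1, and its tissue makeup as a part of the difference was not tested beyond the values without it. For single genes the edgeR interaction did not pass for Trem2 or Itgax.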

How the results depend on the processing

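Direction and side of the threshold were kept for most of the values tried, including every alternative for the mean diet effects of Trem2, Itgax, Clec7a and Tm4sf19. The diet difference of the Trem2 to Itgax ratio over both genotypes was -3.12 with a pseudocount of 5. The genotype by diet value of that ratio was -1.45 without the epithelium-rich pair and -1.76 without the muscle-rich pair. The exact permutation p was 0.05 in each, so neither value was below the threshold of 0.05 any longer. Fewer libraries also allow fewer arrangements. Of the 10 genes, 1 to 5 passed in transgenic fat and 0 to 1 in wild-type fat when 1 library was left out. In wild-type fat 2 passed with DESeq2, 4 with a filter of at least 1 count, and 0 without both epithelium-rich libraries.

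Signs turned where no value had passed. Spp1 in wild-type fat ran from -3.94 to 6.88 when 1 library was left out, and was 1.10 with limma-voom and 6.89 without both epithelium-rich libraries. Its mean over genotypes was 0.98 with limma-voom, 3.86 without both epithelium-rich libraries and -1.63 to 3.95 without 1 library, and in transgenic fat it ran from -0.0052 to 2.38. Cd9 in wild-type fat ran from -0.019 to 0.28, and its mean over genotypes ran from -0.17 to 0.026 and was 0.10 without both epithelium-rich libraries. Lipa in wild-type fat ran from -0.033 to 0.34, and Itgax between genotypes on high-fat diet from -0.57 to 0.23. The cause was not tested.

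Same-numbered libraries of different groups deviated with a correlation of -0.11 to 0.27. Differently numbered libraries were not compared, so these values cannot show whether the numbers pair the libraries. With a replicate block the mean diet effect of Atp6v0d2 lost its call (1.55, adjusted p = 0.0789), and 99 genes passed in wild-type fat, against 188 without it.

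Over all genes, 1445 passed in transgenic fat, against 2209 with DESeq2, 764 with only the 6 libraries compared, 826 without the epithelium-rich pair and 543 to 1504 without 1 library. In wild-type fat 188 passed, against 871 with DESeq2, 699 with limma-voom, 683 with at least 1 count, 32 without the epithelium-rich and 23 without the muscle-rich pair, and 0 to 269 without 1 library. For the mean of both, 2882 passed, against 1865 without the epithelium-rich pair and 1868 to 2993 without 1 library. On control diet, 6 genes differed between genotypes, against 262 with DESeq2, 269 with at least 1 count, 16 without the muscle-rich pair, 1 without the epithelium-rich pair and 0 to 58 without 1 library, and 0 with the 6 libraries, library totals only or the replicate block. On high-fat diet 0 differed, against 9 with DESeq2 and 5 with at least 1 count. For the interaction 0 passed, against 27 with DESeq2, 53 with at least 1 count, 1 without the epithelium-rich pair and 0 to 8 without 1 library. Low counts limit Tm4sf19 and Spp1.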

Other observations

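Within each diet, the levels of Trem2 and Itgax over 6 libraries of both genotypes gave opposite signs, in 2 relations tested. On high-fat diet Pearson's r was 0.86 (exact permutation p = 0.0431, Benjamini-Hochberg adjusted 0.0861) and Spearman's rho 0.60 (exact p = 0.242), and r was 0.96 without the 2 libraries farthest from the median. On control diet r was -0.55 (exact p = 0.283, adjusted 0.283) and rho -0.77 (exact p = 0.103), and r was -0.84 without the 2 farthest libraries. Neither relation passed after adjustment. Genotypes did not overlap on control diet for either gene, with Trem2 higher and Itgax lower in transgenic libraries. The permutation was not kept within genotype, so the control-diet r cannot be told apart from this genotype difference. A pooled value over both diets is not given because the diets form separate clusters for Itgax.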
